A study of Homo sapiens with 6 samples.

Results

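Tight junctions seal the gap between neighbouring epithelial cells, and 9 genes of that junction are described here: the claudins CLDN1, CLDN3, CLDN4, CLDN7 and CLDN12, occludin (OCLN), the scaffold genes TJP1 and TJP3, and the adhesion molecule gene F11R. They were chosen by symbol, with earlier results of these data known, and each matched 1 of the 59715 gene IDs in the count table. The RNA came from the established human colon cancer line HCT116, whose cells have epithelial features. Both genotypes of that line, with 3 MLL4KO libraries and 3 MLL4WT libraries, were grown in the same serum-containing medium with no treatment named. MLL4KO cells are labelled as knocked out for MLL4, a histone H3 lysine methyltransferase, and MLL4WT cells as wild type at it. The labels do not say which gene symbol MLL4 stands for, where the gene was altered, or whether MLL4KO is 1 clone or several. Nor do they say whether libraries of the same genotype are separate cultures. Every p-value therefore measures the spread between these libraries only, which may be technical.

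A claudin crosses the membrane several times and pairs with claudins of the facing cell, and the mix of claudins in a strand sets which ions and solutes pass between cells. Sealing claudins narrow that path, occludin and the junctional adhesion molecule encoded by F11R lie in the same strands or beside them, and the scaffold proteins ZO-1 (TJP1) and ZO-3 (TJP3) tie them to the actin cytoskeleton. In intestinal epithelium CLDN3, CLDN4 and CLDN7 are abundant, and CLDN7 also occurs along the lateral membrane, where it binds the adhesion protein EpCAM.

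Library totals ran from 14775580 to 19736751 counts in MLL4KO and from 6829400 to 17828774 in MLL4WT. The shallowest library, MLL4WT replicate 1, stood apart from its group: its chi-square per degree of freedom against the other MLL4WT libraries was 7.61 and 7.58, against 1.8 to 2.48 for the other pairs within a genotype. It was kept. Part of each column name was read here as a flow cell code, which the labels do not state. By that reading it is the 1 library with a code of its own. KMT2D, the gene most often called MLL4, held 232 ± 9.56 CPM (counts-per-million scale, TMM library sizes; SD, n = 3) in MLL4KO and 235 ± 4.6 CPM in MLL4WT, a difference that did not pass (edgeR quasi-likelihood test, Benjamini-Hochberg adjusted p = 0.832). A count over a whole gene does not check a small deletion. KMT2B, which has carried the same name, fell to 63.2 ± 3.45 CPM in MLL4KO, against 90.5 ± 3.44 CPM in MLL4WT (edgeR adjusted p = 2.33e-05). Of 8 epithelial markers, 4 of the 6 tested fell (KRT8, KRT18, KRT19 and EPCAM). The summed level of all 8 was 1080 to 1100 CPM in MLL4KO and 1610 to 1670 CPM in MLL4WT. The 2 that did not pass were CDX2, at 30.5 ± 1.94 CPM in MLL4KO and 28.7 ± 2.25 CPM in MLL4WT (adjusted p = 0.341), and CDH1, at 11.3 ± 0.725 CPM in MLL4KO and 10.9 ± 0.932 CPM in MLL4WT (adjusted p = 0.864). The share that fell over all tested genes was 21.6%. Of the 2 untested epithelial markers, VIL1 had 11 counts in MLL4KO and 21 in MLL4WT and CDX1 had 0 in both. Summed fibroblast markers were 31.6 to 35.4 CPM in MLL4KO and 30.0 to 32.2 CPM in MLL4WT, with DCN and LUM near 0. Within that list COL3A1 fell to 0.776 ± 0.367 CPM in MLL4KO, against 5.22 ± 0.288 CPM in MLL4WT (adjusted p = 1.57e-05), and COL1A1, which makes up most of the sum, and PDGFRB rose (adjusted p = 0.0106 and 0.0229). Summed endothelial markers were 3.48 to 4.01 CPM in MLL4KO and 1.93 to 2.4 CPM in MLL4WT, and immune markers were 1.04 to 2.1 CPM in MLL4KO and 0.743 to 1.3 CPM in MLL4WT. The part of these shifts in the values of the junction genes was not tested.

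The junction genes did not move one way. CLDN7 fell 2.28-fold in MLL4KO and CLDN4 fell slightly, TJP3, CLDN12 and OCLN rose by 1.43-fold or less, and CLDN3, TJP1 and F11R did not pass the test. CLDN1 was too low to be tested. Of the 8 genes tested, 3 rose, beside 19.8% of all 14543 tested genes, and 2 fell, beside 21.6%. The 2 groups of libraries did not overlap for 5 of the 8, and they did not overlap for 52.5% of all tested genes. In all, 41.4% of tested genes passed in one direction or the other, the median log2 fold change was 0.0486 over the 8 genes and -0.00439 over all tested genes, and the counts of the 8 are not read as anything particular to tight junctions.

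**Figure D1:**
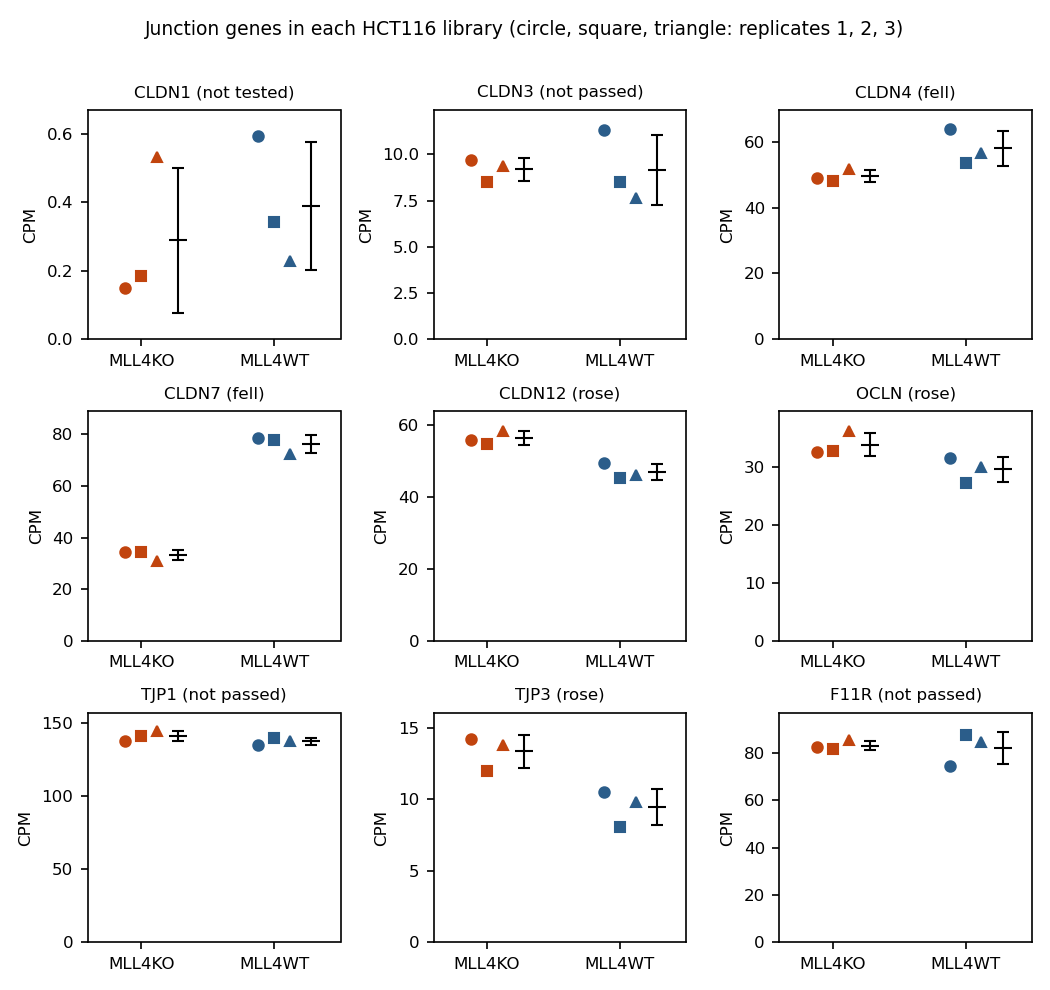
CPM of each of the 9 junction genes in the 3 MLL4KO libraries (left, orange) and the 3 MLL4WT libraries (right, blue), with the mean and SD beside each group; each panel has its own vertical axis from 0. The groups separate widely for CLDN7, where MLL4KO libraries lie between 30.9 and 34.5 CPM and MLL4WT libraries between 72.2 and 78.8 CPM, and overlap for CLDN1, CLDN3, TJP1 and F11R.

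CLDN7 encodes a claudin of the basolateral membrane and tight junction of gut epithelium. It lies on the minus strand of chromosome 17, from 7259903 to 7263983 in GENCODE 29 on GRCh38. Its level was 34.5, 34.5 and 30.9 CPM in the 3 MLL4KO libraries, against 78.8, 78.0 and 72.2 CPM in the 3 MLL4WT libraries. All MLL4KO libraries were low and all MLL4WT libraries high, with a gap between the groups far wider than the spread inside either. The log2 fold change, MLL4KO over MLL4WT, was -1.19 ± 0.0644 (SE, edgeR adjusted p = 6.70e-08), the largest change among the 8 genes tested. Between libraries that share a flow cell code, the log2 ratio was -1.06 (1 MLL4KO against 1 MLL4WT library) and -1.25 (2 MLL4KO against 1 MLL4WT library), with no test at those sizes. In bulk RNA, fewer cells carrying a transcript and less transcript per cell cannot be told apart. CLDN7 shares 38 bases of its span with ELP5 on the opposite strand, and 2187 bases with a read-through-like gene on its own strand that held 14 counts in MLL4KO and 19 in MLL4WT. The library kit is not stated to keep strand, so reads of CLDN7 and ELP5 in the shared bases cannot be told apart.

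Promoter letters are shown for CLDN7 because it changed most, with OCLN, TJP1 and TJP3 beside it as the other genes that carry the same motif. Repressors of the Snail family bind E-boxes in claudin and occludin promoters of mouse cells, and the E-box was searched as CACCTG on both strands in the 250 bases before each RefSeq start (GRCh38.p14), which gave 14 windows for 8 of the 9 genes, all but F11R. The CLDN7 window chr17:7262479-7262728 on the minus strand held 4 such E-boxes, at 174, 135, 20 and 9 bases before the start. At least 4 were present in 43 of 35116 windows of all genes (0.122%), and at least 1 in 17.5%. The cut of 4 is the count of this window itself, in a gene picked for its change. The share is therefore a description and not a test. This window lies inside exons of longer CLDN7 transcripts in GENCODE 29. OCLN had 1 E-box in each of its 2 windows, TJP1 had 1 in 4 windows and TJP3 had 1 in 2 windows, and none of these letters was found in the windows of CLDN1, CLDN3, CLDN4 or CLDN12. The sites follow, each 30 bases, 5′ to 3′ on the gene's strand, with the E-box or its complement in capitals.
CLDN7 (chr17:7262635-7262664, minus): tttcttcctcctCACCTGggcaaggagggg
CLDN7 (chr17:7262596-7262625, minus): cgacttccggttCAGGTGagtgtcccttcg
CLDN7 (chr17:7262481-7262510, minus): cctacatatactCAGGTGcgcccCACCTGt
OCLN (chr5:69492502-69492531, plus): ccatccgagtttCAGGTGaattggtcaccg
OCLN (chr5:69492645-69492674, plus): tctaggacgcagCAGGTGggactcgcggcg
TJP1 (chr15:29969120-29969149, minus): gcggccggcgcgCAGGTGgcccggcctcgc
TJP3 (chr19:3721707-3721736, plus): gagacctggaggaggaagaggggCAGGTGc

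A match to these letters is a description and not a binding site, and the genes that hold one fell (CLDN7), rose (OCLN and TJP3) or did not pass (TJP1). Other motifs were also searched on both strands. The GC box GGGCGG, bound by Sp1-type factors, was in 10 of the 14 windows (7 of the 8 genes) and in 42.6% of all windows. CCAAT was in 3 of the 14 windows (3 of the 8 genes) and in 32.0% of all windows. TATAAA was in none of the 14 windows and in 10.7% of all windows, and the Grainyhead-type letters AACCGGTT were in none of the 14 and in 0.117% of all. The window of the farther CLDN7 start, in an intron of its longest transcript, and the window of CLDN3 follow with CCAAT and GC boxes in capitals. This CLDN7 stretch was 60.4% GC, with 9 CpG steps, 1 CCAAT box and no GC box. The CLDN3 stretch was 71.6% GC, with 19 CpG steps and 4 GC boxes. The CLDN7 window with the E-boxes was nearer to CLDN3, at 71.2% GC with 25 CpG steps and 1 GC box.
CLDN7 (chr17:7263214-7263463, minus): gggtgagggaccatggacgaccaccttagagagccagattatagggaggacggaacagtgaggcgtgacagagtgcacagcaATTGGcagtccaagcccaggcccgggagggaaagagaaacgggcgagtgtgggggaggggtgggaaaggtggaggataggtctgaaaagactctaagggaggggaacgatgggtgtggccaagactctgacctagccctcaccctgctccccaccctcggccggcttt
CLDN3 (chr7:73770271-73770520, minus): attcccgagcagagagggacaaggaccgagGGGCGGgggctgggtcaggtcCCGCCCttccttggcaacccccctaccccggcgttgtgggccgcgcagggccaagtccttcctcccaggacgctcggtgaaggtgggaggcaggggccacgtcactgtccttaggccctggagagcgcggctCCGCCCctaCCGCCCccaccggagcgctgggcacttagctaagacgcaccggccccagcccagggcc

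CLDN3 and CLDN4, a pair of sealing claudins that also serve as receptors of the Clostridium perfringens enterotoxin, stand next to each other on chromosome 7 among the tested genes with a symbol entry (CLDN3 from 73768997 to 73770270 on the minus strand, CLDN4 from 73799542 to 73832693 on the plus strand). CLDN4 was at 49.0, 48.1 and 51.7 CPM in MLL4KO libraries, against 63.8, 53.6 and 56.6 CPM in MLL4WT libraries. All 3 MLL4KO libraries lay under all 3 MLL4WT libraries, and the highest MLL4WT value was that of the shallowest library. Its log2 fold change was -0.21 ± 0.0679 (SE, edgeR adjusted p = 0.0257). The call was lost without MLL4WT replicate 3 (adjusted p = 0.0654) and without MLL4KO replicate 1, 2 or 3 (adjusted p = 0.108, 0.123 and 0.0516), while the direction held. It was also lost with total counts, upper quartile factors, the DESeq2 Wald test and thinning to the shallowest library (adjusted p = 0.107, 0.088, 0.0675 and 0.13). Within flow cell codes the CLDN4 log2 ratio was -0.208 and -0.103.

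CLDN3 was at 9.70, 8.50 and 9.37 CPM in MLL4KO libraries, against 11.3, 8.51 and 7.64 CPM in MLL4WT libraries. The MLL4KO values fell inside the wider MLL4WT range, and the log2 fold change of 0.06 ± 0.143 (SE) did not pass (edgeR adjusted p = 0.765). Its log2 ratio within flow cell codes was 0.344 and 0.0717, and without MLL4WT replicate 3 the log2 fold change was -0.06. The starts of CLDN3 and CLDN4 are 30.5 kb apart. Of the pair CLDN4 passed and CLDN3 did not, and the difference between them was not tested.

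CLDN12 encodes a claudin without the usual PDZ-binding tail, known in mouse intestine for a part in calcium uptake between cells. It spans 90383721 to 90513402 on the plus strand of chromosome 7. It had 55.8, 54.6 and 58.4 CPM in MLL4KO libraries, against 49.3, 45.2 and 46.2 CPM in MLL4WT libraries. The groups did not overlap, and CLDN12 rose by 0.27 ± 0.0587 on the log2 scale (SE, edgeR adjusted p = 0.003). Its log2 ratio within flow cell codes was 0.273 and 0.322. CLDN12 overlaps CDK14 over 46979 bases and GTPBP10 over 7735 bases on the same strand, and CDK14 rose while GTPBP10 fell. How reads were shared between these genes was not tested.

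CLDN1, a sealing claudin of skin and many other epithelia, spans 190305701 to 190322475 on the minus strand of chromosome 3 and was almost silent in both genotypes. It held 3, 3 and 8 counts in MLL4KO libraries and 4, 5 and 4 counts in MLL4WT libraries. The rate in MLL4KO was 0.813 of that in MLL4WT, with a 95% exact interval of 0.354 to 1.88 that covers counting error only. A difference inside that interval was not detectable at this depth.

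Per length of joined exons, CLDN7 held the largest share of claudin transcript in each of the 6 libraries, and its share was smaller in MLL4KO. Dividing CPM by the kilobases of annotated exon, all claudins together held 45.4, 44.3 and 44.0 CPM per kb in MLL4KO libraries, against 72.1, 66.7 and 63.9 CPM per kb in MLL4WT libraries. CLDN7 made up 30.0% ± 1.6 (SD, n = 3) of that sum in MLL4KO and 45.4% ± 1.57 in MLL4WT. CLDN4 made up 23.7% ± 1.1 in MLL4KO and 18.2% ± 0.999 in MLL4WT although its own level was lower in MLL4KO, since a share depends on the whole sum. CLDN12 held 18.7% ± 0.811 in MLL4KO and 10.3% ± 0.361 in MLL4WT, and CLDN3 held 16.2% ± 0.956 in MLL4KO and 10.6% ± 1.53 in MLL4WT. The share of CLDN6, a claudin of embryonic epithelia and some tumours, was 2.41% ± 0.815 in MLL4KO and 10.4% ± 0.387 in MLL4WT. With the length of the longest transcript in place of joined exons, CLDN12 held 27.1% ± 1.12 in MLL4KO and 15.5% ± 0.494 in MLL4WT, above CLDN4 in MLL4KO (20.5% ± 0.922), and in MLL4KO replicate 3 it was above CLDN7 (28.4% for CLDN12 and 27.9% for CLDN7). Per kb of joined exons, the ratio of CLDN7 to CLDN4 was 1.27 ± 0.122 in MLL4KO and 2.5 ± 0.222 in MLL4WT (SD, n = 3 each). Of 24 claudin genes, 18 had at least 1 count, and 11 of those were at or under a share of 0.235% in both genotypes.

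**Figure D2:**
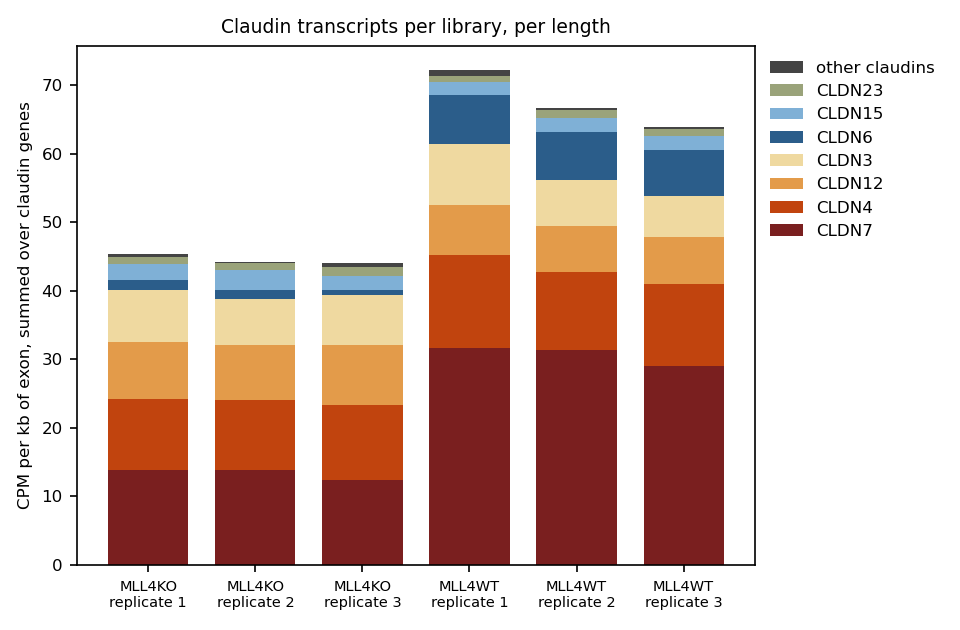
Summed claudin level per library in CPM per kb of exon, stacked by gene, with the 3 MLL4KO libraries on the left and the 3 MLL4WT libraries on the right. The stack is 44.0 to 45.4 CPM per kb in MLL4KO and 63.9 to 72.1 CPM per kb in MLL4WT, and the CLDN7 and CLDN6 segments are smaller in each MLL4KO library than in any MLL4WT library.

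Occludin, a membrane protein with MARVEL topology that stabilises the strands, is encoded by OCLN at 69492292 to 69558104 on the plus strand of chromosome 5. OCLN had 32.7, 32.8 and 36.3 CPM in MLL4KO libraries, against 31.7, 27.3 and 30.0 CPM in MLL4WT libraries. Each MLL4KO library lay above each MLL4WT library, the nearest pair by about 1 CPM. The log2 fold change of 0.20 ± 0.0763 (SE) passed narrowly (edgeR adjusted p = 0.0489). The call was lost without MLL4WT replicate 2 or 3 (adjusted p = 0.193 and 0.0826), without MLL4KO replicate 1, 2 or 3 (adjusted p = 0.07, 0.078 and 0.175), with the replicate number as a block (adjusted p = 0.0543), with the DESeq2 Wald test (adjusted p = 0.151), with thinning (adjusted p = 0.0651), and after removing GC and length trends, where the log2 fold change was 0.07 (adjusted p = 0.476). Within flow cell codes its log2 ratio was 0.124 and 0.341. A partial copy of OCLN on the same chromosome, OCLNP1, held 20 counts in MLL4KO and 2 in MLL4WT, so reads could have been split between the copies, though few were assigned to the copy.

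Of the scaffold genes, TJP3 rose and TJP1 did not pass, and the difference between them was not tested. TJP3, which encodes ZO-3, the scaffold found mainly in epithelia, spans 3708109 to 3750813 on the plus strand of chromosome 19 and had 14.2, 12.02 and 13.8 CPM in MLL4KO libraries, against 10.6, 8.09 and 9.82 CPM in MLL4WT libraries. The groups did not overlap, and TJP3 rose by 0.52 ± 0.122 on the log2 scale (SE, edgeR adjusted p = 0.00521), with log2 ratios of 0.535 and 0.675 within flow cell codes. TJP1, which encodes ZO-1, the widely expressed scaffold, spans 29699367 to 29968865 on the minus strand of chromosome 15 and had 137.8, 141.5 and 145.0 CPM in MLL4KO libraries, against 135.1, 140.3 and 137.6 CPM in MLL4WT libraries. The TJP1 groups overlapped, and its log2 fold change of 0.04 ± 0.0454 (SE) did not pass (edgeR adjusted p = 0.544), with log2 ratios of 0.0021 and 0.03 within flow cell codes. Per length, TJP3 stood at 0.253 ± 0.0246 of TJP1 in MLL4KO and 0.185 ± 0.0278 of it in MLL4WT (SD, n = 3 each).

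F11R encodes JAM-A, an immunoglobulin-type adhesion molecule that helps to set up the junction, and lies on the minus strand of chromosome 1, from 160995211 to 161021348. It had 82.4, 81.5 and 85.5 CPM in MLL4KO libraries, against 74.3, 87.5 and 84.5 CPM in MLL4WT libraries. The MLL4KO values fell inside the MLL4WT range, whose low end was the shallowest library, and the log2 fold change of 0.01 ± 0.0606 (SE) did not pass (edgeR adjusted p = 0.951). Without MLL4WT replicate 1 it was -0.04, and within flow cell codes the log2 ratios were -0.0367 and -0.0666. A same-strand gene that overlaps F11R over 23392 bases, ENSG00000270149, held 894 counts in MLL4KO and 827 in MLL4WT and did not pass (edgeR adjusted p = 0.133), and reads of the pair could have been shared between them.

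Ordered by level per length in MLL4KO, F11R came first at 16.4 ± 0.413 CPM per kb, then CLDN7 at 13.4 ± 0.828, TJP1 at 12.6 ± 0.32, CLDN4 at 10.6 ± 0.39, CLDN12 at 8.35 ± 0.286, CLDN3 at 7.22 ± 0.485, OCLN at 5.02 ± 0.303, TJP3 at 3.17 ± 0.279 and CLDN1 at 0.0788 ± 0.0577 CPM per kb (SD, n = 3). In that order TJP1 lay just within the SD of CLDN7, while CLDN7 lay above the SD of TJP1. In MLL4WT, CLDN7 came first at 30.6 ± 1.438 CPM per kb, ahead of F11R at 16.2 ± 1.36, CLDN4 at 12.3 ± 1.11, TJP1 at 12.2 ± 0.231, CLDN3 at 7.18 ± 1.5, CLDN12 at 6.96 ± 0.32, OCLN at 4.38 ± 0.325, TJP3 at 2.25 ± 0.299 and CLDN1 at 0.106 ± 0.051 CPM per kb. There CLDN4 and TJP1, and CLDN3 and CLDN12, lay within each other's spread. The lengths are those of all annotated exons joined, and the order turned with the longest transcript as length. In MLL4KO it then began with TJP1 at 17.8 ± 0.453, CLDN7 at 17.3 ± 1.07, F11R at 17.2 ± 0.432, CLDN12 at 15.8 ± 0.54 and CLDN4 at 11.9 ± 0.441 CPM per kb. In MLL4WT it began with CLDN7 at 39.7 ± 1.86, TJP1 at 17.3 ± 0.327, F11R at 16.98 ± 1.43, CLDN4 at 13.9 ± 1.26 and CLDN12 at 13.2 ± 0.605 CPM per kb. CLDN7 was thus first in MLL4WT by both lengths, while the places of TJP1, F11R, CLDN4 and CLDN12 depended on the length used.

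The rest of the tight junction likewise held changes in both directions. Of 65 other tight junction genes, 44 were tested, of which 12 rose, 14 fell and 18 did not pass, with a median log2 fold change of -0.02. Over all tested genes, 19.8% rose and 21.6% fell, and the counts by role that follow stand beside those shares. Among the other claudins, 3 of 19 were tested. CLDN6 was at 2.34, 2.16 and 1.13 CPM in MLL4KO libraries, against 12.5, 12.3 and 11.8 CPM in MLL4WT libraries, a fall of 6.34-fold with no overlap (log2 fold change -2.66 ± 0.194, edgeR adjusted p = 8.99e-07). CLDN15, a pore-forming claudin of the intestine, had 7.22 ± 1.16 CPM in MLL4KO and 5.69 ± 0.201 CPM in MLL4WT (adjusted p = 0.0887), and CLDN23 had 2.39 ± 0.254 CPM in MLL4KO and 2.15 ± 0.236 CPM in MLL4WT (adjusted p = 0.685). CLDN15 did pass with total counts, thinning and GC and length trends removed (edgeR adjusted p = 0.0481, 0.0484 and 0.0199), and in no other setting.

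Of 11 tested membrane proteins other than claudins, 4 rose and 4 fell. JAM2, a junctional adhesion molecule related to F11R, rose to 2.52 ± 0.552 CPM in MLL4KO, against 0.622 ± 0.179 CPM in MLL4WT (log2 fold change 1.91, edgeR adjusted p = 0.000506), and CXADR, the coxsackievirus and adenovirus receptor at the junction, rose to 52.0 ± 2.2 CPM in MLL4KO, against 34.6 ± 1.45 CPM in MLL4WT (0.59, adjusted p = 1.77e-05). Of the angulins, the proteins of contacts where 3 cells meet, LSR fell to 197.3 ± 1.73 CPM in MLL4KO, against 265.9 ± 23.3 CPM in MLL4WT (-0.42, adjusted p = 0.000109), while ILDR2 rose to 31.4 ± 3.27 CPM in MLL4KO, against 12.7 ± 0.88 CPM in MLL4WT (1.32, adjusted p = 9.25e-07). ILDR1 also rose, to 2.4 ± 0.583 CPM in MLL4KO, against 1.34 ± 0.306 CPM in MLL4WT (0.83, adjusted p = 0.0402). ESAM, an adhesion molecule better known from endothelium, fell to 8.53 ± 1.34 CPM in MLL4KO, against 12.4 ± 0.955 CPM in MLL4WT (adjusted p = 0.00733). BVES, a Popeye-domain membrane protein of epithelial junctions, held 1 count in MLL4KO and 33 in MLL4WT, a ratio of rates of 0.0229 with a 95% exact counting interval of 0.000562 to 0.137. MARVELD2 (tricellulin), the relative of occludin where 3 cells meet, had 32.0 ± 1.6 CPM in MLL4KO and 32.2 ± 0.799 CPM in MLL4WT (adjusted p = 0.847).

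Of 17 tested plaque and polarity genes, 5 rose and 5 fell. The angiomotin family split: AMOTL2 fell to 24.7 ± 0.906 CPM in MLL4KO, against 61.3 ± 7.19 CPM in MLL4WT (log2 fold change -1.33, edgeR adjusted p = 2.36e-07), and AMOT rose to 19.2 ± 1.56 CPM in MLL4KO, against 12.1 ± 0.623 CPM in MLL4WT (0.65, adjusted p = 0.000174). AMOTL1, at 60.4 ± 1.32 CPM in MLL4KO and 62.7 ± 6.09 CPM in MLL4WT, did not pass (adjusted p = 0.416). Of the polarity complexes, PRKCI, an atypical protein kinase C, rose by 0.45 (adjusted p = 9.41e-05) and its partner PARD6G by 0.41 (adjusted p = 0.00399) on the log2 scale. Their relatives PRKCZ and PARD6A fell by 0.17 and 0.42 (adjusted p = 0.0401 and 0.0312), and PARD6B did not pass (adjusted p = 0.0888). In the Crumbs complex PALS1 rose by 0.23 (adjusted p = 0.0263). CRB3, counted with the membrane proteins, fell by 0.54 (adjusted p = 0.00861). The calls of PRKCZ, PARD6A, PALS1 and CRB3 were not followed over the other ways of processing. PATJ of the Crumbs complex fell by 0.23 (adjusted p = 0.0263), which no longer passed when MLL4WT replicate 3 was left out (adjusted p = 0.166) or MLL4KO replicate 1 or 2 (adjusted p = 0.12 and 0.108), nor with total counts, upper quartile factors, the DESeq2 Wald test or thinning (adjusted p = 0.0939, 0.0795, 0.117 and 0.077).

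Of 13 tested regulators of the junction and its actin ring, 3 rose and 4 fell. ROCK1, a kinase that drives actomyosin contraction, fell to 82.2 ± 3.18 CPM in MLL4KO, against 121.5 ± 8.51 CPM in MLL4WT (log2 fold change -0.57, edgeR adjusted p = 1.24e-05), YBX3 (ZONAB), a factor held at the junction by ZO-1, fell by 0.41 (adjusted p = 0.000203), and MICALL2, a Rab13 effector in occludin recycling, fell by 0.32 (adjusted p = 0.00923). ARHGEF11, a guanine nucleotide exchange factor, rose by 0.22 (adjusted p = 0.00663), and WNK4, a kinase that phosphorylates claudins, by 0.57 (adjusted p = 0.00743). MYLK, the myosin light chain kinase that contracts the ring, rose by 0.36 (adjusted p = 0.0257), which no longer passed when MLL4WT replicate 2 was left out (adjusted p = 0.0665) or MLL4KO replicate 1, 2 or 3 (adjusted p = 0.0605, 0.051 and 0.074), nor with the DESeq2 Wald test (adjusted p = 0.136) or GC and length trends removed (adjusted p = 0.0768). With the DESeq2 Wald test the calls of MICALL2 (adjusted p = 0.0677) and WNK4 (adjusted p = 0.0519) were lost too.

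**Figure D3:**
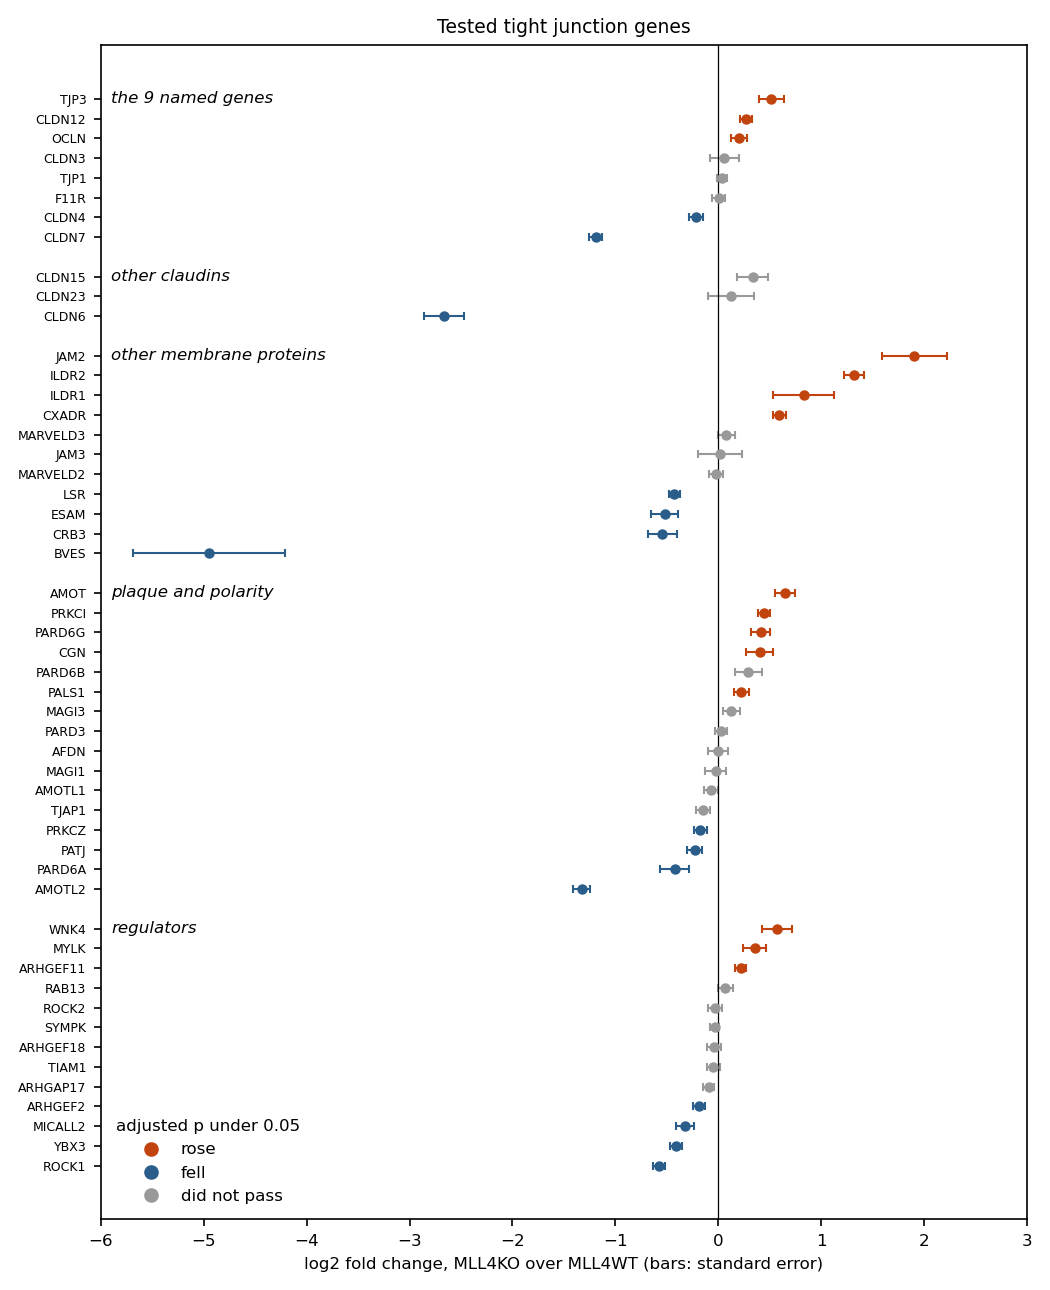
Log2 fold change, MLL4KO over MLL4WT, of the tested tight junction genes but 1, which is not shown, with standard errors, grouped by role; orange rose, blue fell and grey did not pass at an adjusted p under 0.05. Each group apart from the other claudins holds genes on both sides of 0 that passed; the value of BVES rests on 1 MLL4KO count and its size depends on the prior count of the fit.

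Of the tested genes that act on claudins at the membrane, EPCAM, ST14 and SPINT1 fell, and SPINT2 and PRSS8 did not pass. EPCAM, whose protein binds claudin-7 and shields it from breakdown, had 196.3, 208.0 and 205.7 CPM in MLL4KO libraries, against 281.7, 301.0 and 291.0 CPM in MLL4WT libraries. The groups did not overlap (log2 fold change -0.52 ± 0.0455, edgeR adjusted p = 3.77e-06). ST14 (matriptase), a membrane protease that cleaves EpCAM and thereby destabilises claudin-7, fell by 0.55 on the log2 scale (adjusted p = 5.85e-06), and its inhibitor SPINT1 fell by 0.50 (adjusted p = 0.00511). The inhibitor SPINT2, loss of which destabilises EpCAM and claudin-7, had 239.4 ± 2.71 CPM in MLL4KO and 257.9 ± 15.9 CPM in MLL4WT (adjusted p = 0.0937). PRSS8 leaned the other way, with a log2 fold change of 0.24 that did not pass (edgeR adjusted p = 0.107). In all, 3 of the 5 tested genes of this list fell and none rose, beside 21.6% and 19.8% of all tested genes. Its median log2 fold change was -0.498, beside -0.00439 over all tested genes.

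Of the repressors known to silence junction genes, ZEB1 passed and the Snail family did not. ZEB1 had 14.2, 16.2 and 14.7 CPM in MLL4KO libraries, against 10.7, 10.6 and 10.5 CPM in MLL4WT libraries (log2 fold change 0.51 ± 0.0976, edgeR adjusted p = 0.00137). SNAI1 had 13.0 ± 1.22 CPM in MLL4KO and 16.3 ± 2.55 CPM in MLL4WT (adjusted p = 0.0631), SNAI2 had 2.43 ± 0.232 CPM in MLL4KO and 3.36 ± 0.377 CPM in MLL4WT (adjusted p = 0.0748), and SNAI3 had 2.68 ± 0.125 CPM in MLL4KO and 1.84 ± 0.296 CPM in MLL4WT (adjusted p = 0.0937). The groups did not overlap for any of these 4 genes, beside 52.5% of all tested genes. ZEB2, TWIST1 and TWIST2 were too low to be tested. Of 11 tested epithelial factors, 4 fell and 1 rose, beside 21.6% and 19.8% of all tested genes. ESRP1, a splicing factor of epithelial cells, fell to 30.3 ± 2.58 CPM in MLL4KO, against 85.5 ± 2.33 CPM in MLL4WT (log2 fold change -1.50, adjusted p = 1.34e-08), and its relative ESRP2 fell by 0.87 (adjusted p = 2.01e-07). KLF5, a factor of gut crypt epithelium, fell by 0.88 (adjusted p = 2.71e-06). GRHL2, a Grainyhead factor that activates claudin genes in mouse epithelium, rose to 2.03 ± 0.14 CPM in MLL4KO, against 0.653 ± 0.211 CPM in MLL4WT (log2 fold change 1.65, adjusted p = 0.00163). Its call was lost when every library was thinned to the depth of the shallowest (adjusted p = 0.0799).

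The genes beside the 9 on their chromosomes gave no common direction. The 2 nearest tested genes on each side of each of the 9 were taken by gene start, passing over the 194 tested genes without a symbol entry. Starts lay from 2.75 kb (F11R and ENSG00000270149) to 2150 kb (CLDN1 and LPP) apart. Counted once each and leaving out the 9 themselves, these were 32 genes, of which 6 rose, 6 fell and 20 did not pass. Of all tested genes, 19.8% rose and 21.6% fell. Next to CLDN7, ELP5, a subunit of the Elongator complex, and CTDNEP1, a phosphatase of the nuclear envelope, fell by 0.33 and 0.34 on the log2 scale (edgeR adjusted p = 0.000427 and 0.00785), beside -1.19 for CLDN7, and SLC2A4 and YBX2 on the other side did not pass (adjusted p = 0.366 and 0.517). Near CLDN3 and CLDN4, ABHD11, which encodes a mitochondrial hydrolase, fell to 8.85 ± 0.673 CPM in MLL4KO, against 23.1 ± 1.41 CPM in MLL4WT (log2 fold change -1.37, adjusted p = 6.06e-07), beside -0.21 for CLDN4. Around CLDN12, CDK14, a cyclin-dependent kinase of the Wnt pathway, rose to 23.8 ± 0.751 CPM in MLL4KO, against 13.1 ± 0.611 CPM in MLL4WT (adjusted p = 4.84e-06), FZD1, a Wnt receptor, rose by 0.55 on the log2 scale (adjusted p = 0.000258) and GTPBP10 fell by 0.22 (adjusted p = 0.0166). None of the 4 neighbours of OCLN passed.

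**Figure D4:**
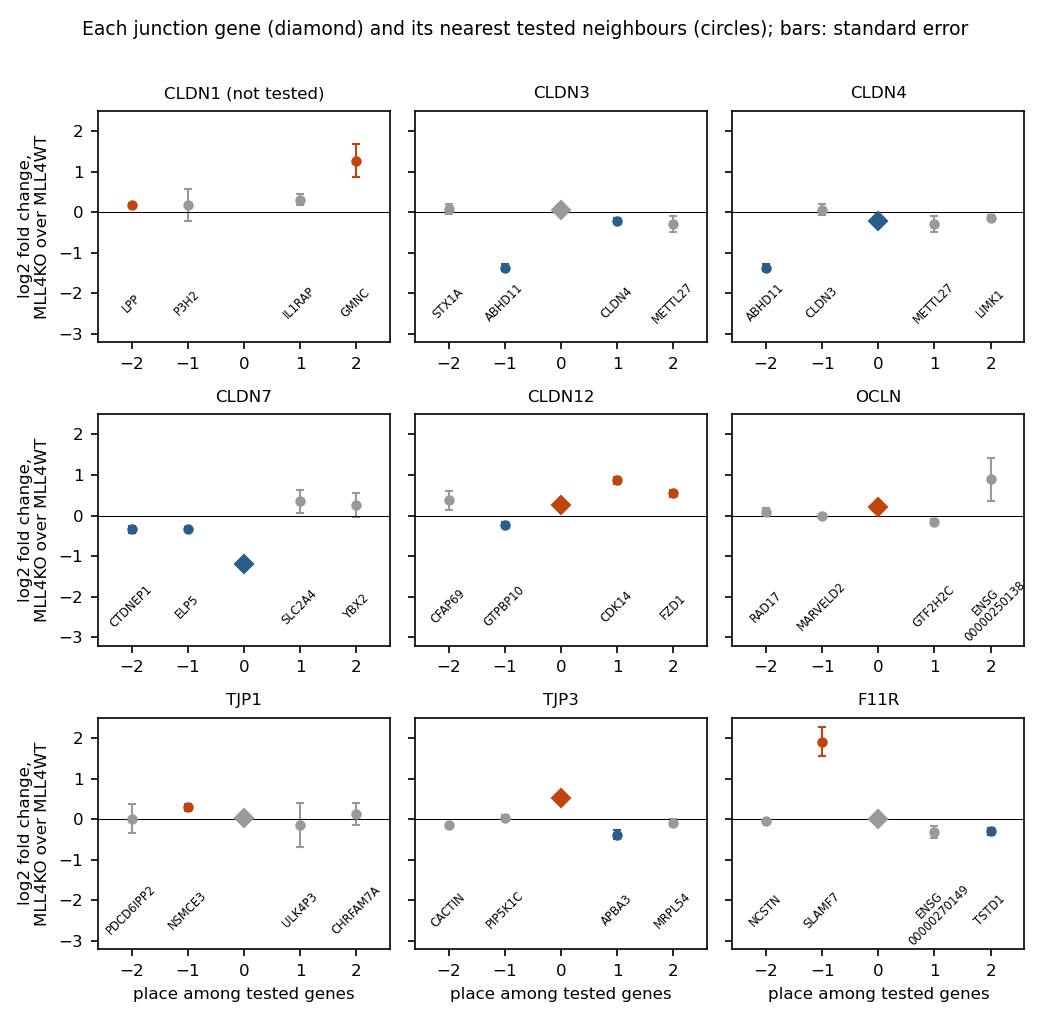
Log2 fold change, MLL4KO over MLL4WT, with standard error, of each junction gene (diamond) and of the 2 nearest tested genes with a symbol entry on each side (circles). Genes are in order along the chromosome and not to distance. Orange rose, blue fell and grey did not pass. CLDN7 stands at -1.19 beside ELP5 and CTDNEP1 at -0.33 and -0.34, and CLDN3 and CLDN4 share ABHD11 at -1.37.

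For each gene tested, the 1 other gene with the highest Pearson's r of log2 CPM over the 6 libraries was named, as a description only. It was taken among 11031 genes with a mean of at least 5 CPM. These were BAG1 for CLDN7 (r = 0.9997), XPR1 for CLDN12 (r = 0.9973), FBXL6 for CLDN4 (r = 0.9951), POLRMT for CLDN3 (r = 0.9826), IL4R for OCLN (r = 0.9974), TBX3 for TJP3 (r = 0.9972), KIF5B for TJP1 (r = 0.9916) and CEP290 for F11R (r = 0.9948). Pearson's r does not compare the size of a change. BAG1 fell by 0.43 on the log2 scale, against 1.19 for CLDN7, while XPR1 rose by 0.25, against 0.27 for CLDN12. All 6 points of each pair share libraries, depth and scaling, and high values were common: 1217 genes had an r above 0.95 with CLDN7, against 16 with CLDN3.

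Across 17 other ways of processing the counts, CLDN7, CLDN12 and TJP3 passed in the same direction in all 17. Their log2 fold changes ran from -1.23 to -1.04 for CLDN7, from 0.189 to 0.333 for CLDN12 and from 0.41 to 0.625 for TJP3. CLDN4 kept its direction in all 17 and passed in 9, and OCLN kept its direction in all 17 and passed in 8. CLDN3, TJP1 and F11R passed in none.

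**Figure D5:**
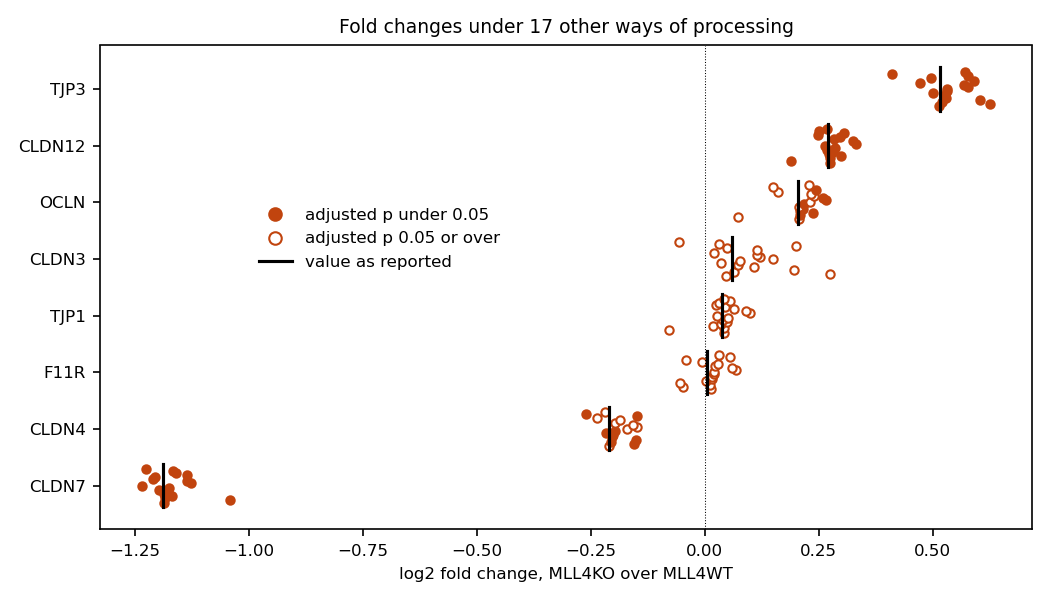
Log2 fold change, MLL4KO over MLL4WT, of each tested junction gene under 17 other ways of processing (circles; filled where the adjusted p was under 0.05) and as reported (bar). All circles of CLDN7, CLDN12 and TJP3 are filled and lie on 1 side of 0, those of OCLN and CLDN4 are part open, and those of CLDN3, TJP1 and F11R are open and cross or approach 0.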

How the data were processed

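Poly(A)-selected RNA was sequenced in 3 MLL4KO and 3 MLL4WT libraries, grouped by the genotype label. The deposited values are expected counts per Ensembl gene ID, given by the authors as whole numbers with no normalisation, per the file headers. The submitters' processing notes list Salmon 1.8.0, DESeq2 1.44.0 and hg38 without saying what each was used for, so the counting tool and its annotation release are not given in the sources used here.

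Genes were filtered with filterByExpr, scaled by TMM and tested over 14543 genes with the quasi-likelihood test of edgeR 4.0.16 (robust, no covariate, 4 residual degrees of freedom, R 4.3.3), with Benjamini-Hochberg adjustment over all of them and a threshold of 0.05. "Rose" and "fell" mean past that threshold. CPM used the TMM-scaled totals. The biological coefficient of variation was 5.62%. The shallowest library holds 3 counts at 0.439 CPM. Coordinates and exon lengths came from GENCODE release 29 on GRCh38, and promoter windows from RefSeq. The test was tried on simulated counts first. Alternatives were other scalings (DESeq2-type size factors, total counts, upper quartile), no filter and a stricter filter of 1 CPM, DESeq2 1.42.0, limma-voom (limma 3.58.1), the replicate number as a block, leaving out each library, a flow cell term, thinning, and removal of GC and length trends by lowess (span 0.3). Ratios within flow cell codes were added after seeing the data.

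The 9 genes, the other gene lists and the motifs were chosen with earlier results of these data known. Named genes were the 9, KMT2D and KMT2B, each tested claudin, in each other list up to 3 called genes per direction with the smallest adjusted p, the neighbours and the most similar genes. MARVELD2, SPINT2, PRSS8, ILDR1, AMOTL1, PRKCZ, PARD6A, PARD6B, PALS1, CRB3 and the Snail genes, and all marker and untested genes, were named outside that rule, after their values were seen. A gene that the rule names is not reported here.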

Additional observations from a re-analysis of the deposited data

How the results depend on the processing

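Among the 9 junction genes, 2 fell as reported, and 1 fell (CLDN7, with CLDN4 lost) under total counts, upper quartile factors, the DESeq2 Wald test and thinning to the shallowest library, and 1 to 2 fell when single libraries were left out. The count that rose was 3 as reported and 2 to 3 when single libraries were left out. Of the other tight junction genes, 12 rose and 14 fell as reported, against 7 and 9 with the DESeq2 Wald test, and 8 to 13 rose and 10 to 15 fell when single libraries were left out. Over all tested genes, 2885 rose and 3136 fell (47.9% of calls rose), against 3706 and 2394 (60.8%) with total counts and 3561 and 2475 (59.0%) with upper quartile factors. Those scalings moved the median log2 fold change of all genes to 0.058 and 0.0498. The genes that passed with libraries left out numbered 4479 to 7343.

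Log2 fold changes that crossed 0, none of which passed in either setting, were those of TJP1 with GC and length trends removed (-0.0774) and of F11R with a flow cell term (-0.0534) and with GC and length trends removed (-0.0484). With single libraries left out, that of CLDN3 ran from -0.0572 to 0.201, that of F11R from -0.0417 to 0.056 and that of KMT2D from -0.040 to 0.0155. That of KMT2D also turned positive with total counts (0.0478), upper quartile factors (0.0399), the stricter filter (0.00069), thinning (0.0012) and GC and length trends removed (0.00628). The causes were not tested.

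Same-numbered libraries did not deviate together (correlations of 0.0245, 0.0341 and -0.0146), so the numbers were not taken to pair the libraries. With the replicate block, 2689 genes rose and 3024 fell, and 2 junction genes rose and 2 fell, OCLN being lost (adjusted p = 0.0543). Depth limits CLDN1 most, at 14 counts in MLL4KO and 13 in MLL4WT. With the longest transcript as length, CLDN7 held 29.7% of the claudin sum in MLL4KO and 46.6% in MLL4WT, against 30.0% and 45.4% as reported, and CLDN12 held 27.1% in MLL4KO and 15.5% in MLL4WT, against 18.7% and 10.3%.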
